A study of Mus musculus with 2 samples.

Results

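MicroRNAs are short RNAs that guide Argonaute proteins to messenger RNAs and lower their output. Each is cut from a hairpin in a longer transcript, in most cases first by Drosha and then by Dicer. In quantitative PCR the measured microRNA is set against one presumed to hold steady, so the steadiness of that reference decides how the result reads. Mir191, Mir425, Mir423, Mir484, Mir361, Mir186 and Mir320 are 7 such genes. They serve as PCR references or lie in or beside genes active in most cells. They were taken by symbol from GENCODE M21 and matched by Ensembl identifier, 7 of the 2202 genes in the tables.

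The counts came from microRNA sequencing of inserts under 30 nt from gastrocnemius, the large calf muscle, of male B6CASTF1/J mice aged 2 months. This strain is the first-generation cross of C57BL/6J with CAST/EiJ. There was 1 group with 2 libraries, replicate 2 and replicate 1, and no treatment or altered gene. The labels list a separate male for each library but 1 donor identifier for both, so the spread between the libraries may hold technical as well as animal differences. Replicate 2 held 2272132 assigned counts and replicate 1 held 638779. These were 16.1% and 17.2% of all reads, while reads matching several places were 74.4% and 75.2% and entered no gene count. All 9 fixed skeletal muscle markers were detected, at 2 CPM (counts per 1000000 assigned counts) or more in both libraries, and none of 6 neuronal markers was. Levels below are in CPM, ratios are replicate 2 over replicate 1, and intervals are exact 95% intervals that cover counting error only.

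The mature sequences are shown because their seeds decide which transcripts each microRNA can pair with, and because they show whether the references are related to each other. The RefSeq (GRCm38.p6) sequences at hand covered 6 of the 7 genes, all but Mir320, with 11 mature sequences. Capitals mark the seed, bases 2 to 8 from the 5′ end.
miR-191-5p: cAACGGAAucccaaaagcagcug
miR-191-3p: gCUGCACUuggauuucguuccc
miR-425-5p: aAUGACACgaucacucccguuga
miR-425-3p: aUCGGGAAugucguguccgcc
miR-423-5p: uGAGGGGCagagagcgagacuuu
miR-423-3p: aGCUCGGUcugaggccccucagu
miR-484: uCAGGCUCaguccccucccgau
miR-361-5p: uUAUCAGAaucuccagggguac
miR-361-3p: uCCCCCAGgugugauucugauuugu
miR-186-5p: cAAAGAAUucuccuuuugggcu
miR-186-3p: gCCCUAAGgugaauuuuuuggg

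The 11 seeds were all different, so no seed was shared among these 6 genes. The longest run of bases common to mature sequences of different members was 6 bases, found between miR-423-3p and miR-484 and between miR-425-5p and miR-484. Across the RefSeq table, which holds mature sequences for 1058 microRNA genes, the seed of miR-425-5p also occurred in miR-489-3p and that of miR-423-5p in miR-6921-5p. The other 9 seeds occurred in no further gene. A run of 20 or more bases in common with some microRNA gene elsewhere in the annotation was found for none of the 7 hairpins, whereas 1087 of the 2202 genes (49.4%) had one. Reads falling in such runs match several places and are not counted. Other parts of the genome were not searched for copies. Counts are per hairpin, so the arms of a gene are counted together.

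The members lie at 6 loci on 6 chromosomes of the mm10 assembly, with most hairpins in or near a broadly expressed gene. Mir191 (ENSMUSG00000105497.1, chr9:108568319-108568392) and Mir425 (ENSMUSG00000065579.1, chr9:108568777-108568861) lie on the plus strand, 384 bases apart, each in an exon of the long noncoding RNA 4833445I07Rik. Mir425 lies 1025 bases upstream of the start of the coding gene Dalrd3. Mir423 (ENSMUSG00000065518.2, chr11:77078064-77078172, minus strand) lies in an intron of Nsrp1, a splicing regulator, 263 bases from the start of the gene. Mir361 (ENSMUSG00000065510.1, chrX:113074824-113074893, minus strand) lies in an intron of Chm, which encodes the Rab escort protein used in lipid attachment to Rab GTPases. Mir186 (ENSMUSG00000065431.1, chr3:157544279-157544349, plus strand) lies in an intron of Zranb2, a splicing factor. Mir320 (ENSMUSG00000065528.1, chr14:70443510-70443591, plus strand) lies 63 bases upstream of the start of Polr3d, an RNA polymerase III subunit gene, and points away from it. Mir484 (ENSMUSG00000070074.1, chr16:14159626-14159692, plus strand) lies 3583 bases upstream of Nde1, a centrosome gene. It overlaps Marf1 on the opposite strand, partly in an exon and partly in an intron. Mir320 and Mir484 are known as microRNAs whose hairpins form without Drosha, while Mir191, Mir425, Mir423, Mir361 and Mir186 are counted among the usual Drosha products.

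**Figure D1:**
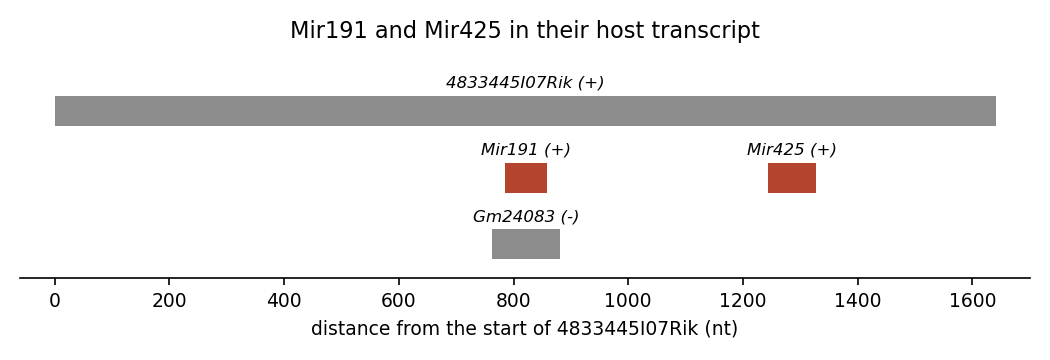
Map of the locus of Mir191 and Mir425 in bases from the start of the long noncoding RNA 4833445I07Rik, with the strand of each feature in brackets. Both hairpins lie in the noncoding RNA, 384 bases apart, and the annotated microRNA gene Gm24083 covers Mir191 on the opposite strand.

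All 7 members were detected in both libraries and none was scarce. Together they gave 11539 CPM in replicate 2 and 9578 CPM in replicate 1, a mean of 10558 ± 1387 CPM (SD, n = 2), or 1.06% of the assigned counts. Their median level was 634 CPM, against 93.4 CPM for the 303 detected genes. Every member passed 100 CPM on average, a level reached by 146 of the 2202 genes. Of all genes 49.4% share 20 or more bases with another gene and can lose reads that match several places, while no member does. Comparisons and ranks of level against all genes, here and below, may therefore place the members too high. In tissue as mixed as whole muscle, fewer cells of a type and less RNA per cell cannot be told apart.

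Mir191 was the most abundant member. It had 15528 counts in replicate 2 (6834 CPM, interval 6727 to 6942) and 3444 counts in replicate 1 (5392 CPM, 5213 to 5574). That placed it 24th of all genes by mean level and gave it 57.8% of the members' sum. Replicate 2 was the higher library, and the counting intervals were apart.

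Mir361 came next, with 4437 counts in replicate 2 (1953 CPM, interval 1896 to 2011) and 1458 in replicate 1 (2282 CPM, 2167 to 2403). Here replicate 1 was the higher library, again by more than counting error. Mir361 ranked 41st by mean level, below Mir191 in both libraries.

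Mir423, Mir425 and Mir320 had similar means but not a similar spread. Mir423 had 2344 counts in replicate 2 (1032 CPM, interval 990 to 1074) and 174 counts in replicate 1 (272 CPM, 233 to 316), the widest gap of the 7. Mir425 had 1357 counts (597 CPM, 566 to 630) in replicate 2 and 428 (670 CPM, 608 to 737) in replicate 1, and these intervals overlapped. Mir320 had 1502 counts (661 CPM, 628 to 695) in replicate 2 and 329 (515 CPM, 461 to 574) in replicate 1, with intervals apart. By mean level they ranked 71st, 74th and 77th, and the ranges of neighbours in that order overlapped, so the order of these genes was not separated by the spread between the libraries. Among the members Mir423 held place 3 in replicate 2 and place 5 in replicate 1.

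The lowest members were Mir484 and Mir186. Mir484 had 677 counts (298 CPM, interval 276 to 321) in replicate 2 and 154 (241 CPM, 205 to 282) in replicate 1. Mir186 had 372 counts (164 CPM, 148 to 181) in replicate 2 and 131 (205 CPM, 171 to 243) in replicate 1. Both were above 100 CPM in each library, and Mir484 lay above Mir186 in each. For both, the intervals of the libraries overlapped.

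**Figure D2:**
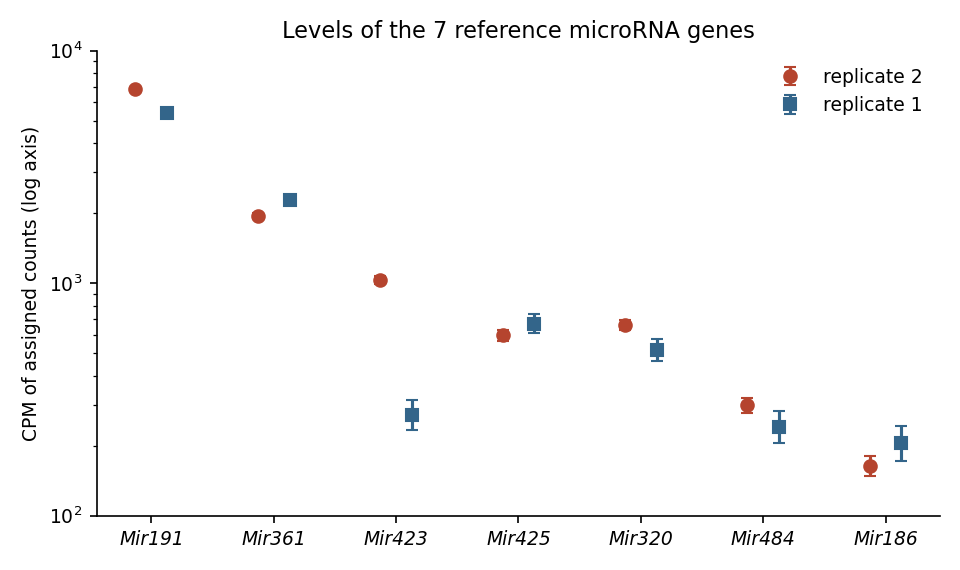
CPM of each member in replicate 2 (circles) and replicate 1 (squares) on a log axis, with exact 95% counting intervals, ordered by mean level. Mir423 lies at 1032 CPM in replicate 2 and 272 CPM in replicate 1, and the ratio of every other member lies between 0.796 and 1.28.

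Mir423 had by far the largest ratio of the 7 members. Mir423 was 3.78-fold higher in replicate 2 (interval 3.25 to 4.44), with a log2 ratio of 1.92 and an adjusted p of 2.07e-92. Here and below p-values are from a two-sided exact binomial test, adjusted by Benjamini and Hochberg's method over all 311 genes with 10 or more counts. The other members stayed within 1.28-fold of equal levels in either direction. Mir320 was 1.28-fold higher in replicate 2 (interval 1.14 to 1.45, adjusted p = 0.000125, exact binomial). Mir191 was 1.27-fold higher (1.22 to 1.32, adjusted p = 6.36e-37, exact binomial) and Mir484 was 1.23-fold higher (1.04 to 1.48, adjusted p = 0.0416, exact binomial). The call of Mir484 was lost with TMM scaling, while Mir425 and Mir186 passed with it. Mir361 was lower in replicate 2, at 0.855-fold (0.806 to 0.908, adjusted p = 1.92e-06, exact binomial). Mir425, at 0.891-fold (0.799 to 0.996, adjusted p = 0.0910, exact binomial), and Mir186, at 0.796-fold (0.652 to 0.982, adjusted p = 0.0741, exact binomial), did not pass at 0.05.

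In all, 5 of the 7 members passed, 4 higher in replicate 2 and 1 lower. Over all tested genes 126 of 311 passed (40.5%), with 23.2% higher and 17.4% lower. Among the 146 genes with a mean of 100 CPM or more, where all members belong, 66.4% passed, so the members' count was near that of genes of such abundance. At least a 2-fold difference was seen for 1 of 7 members, Mir423, against 15.8% of all tested genes and 5.48% of those at 100 CPM or more. The median size of the log2 ratio was 0.33 for the members, 0.39 for all tested genes and 0.30 for those at 100 CPM or more. Ordered from the smallest size among these 146 genes, Mir425 was 52nd, Mir361 63rd, Mir484 75th, Mir186 80th, Mir191 83rd and Mir320 89th. Mir423 was 145th, so a single gene of that abundance had a larger ratio. This test describes a pair of libraries rather than conditions, and sets their difference against counting error alone. Under edgeR's exact test, which takes the spread between the libraries as noise (a common coefficient of variation of 27.9%), 0 members passed, and over all genes 2 passed and 20 had an unadjusted p under 0.05. Mir423 then had an unadjusted p of 0.00151 and an adjusted p of 0.117, and the other 6 had unadjusted p-values between 0.538 and 0.777.

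**Figure D3:**
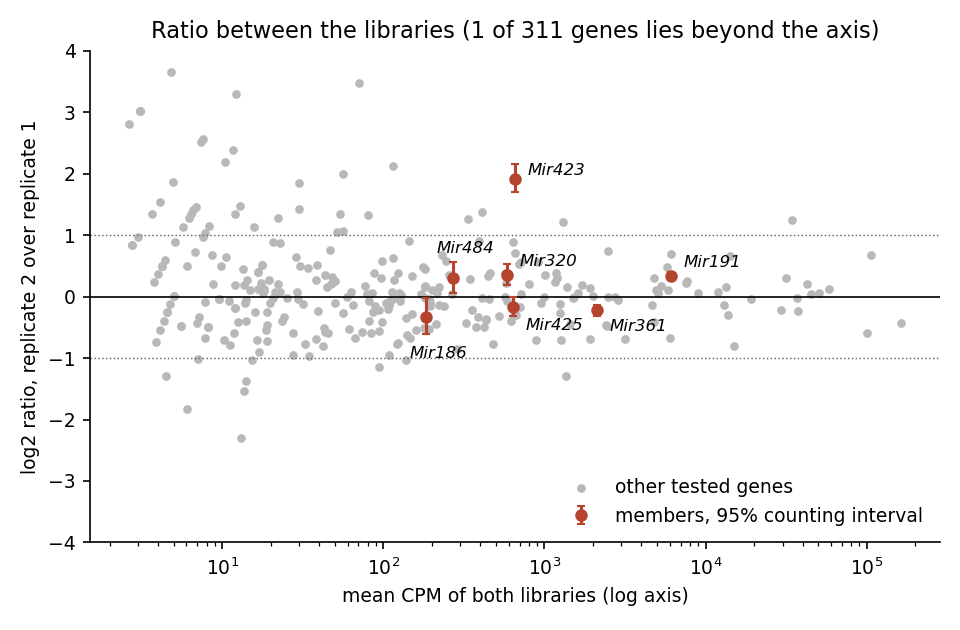
Log2 ratio of replicate 2 over replicate 1 against mean CPM (log axis) for the tested genes, with the members in red and their 95% counting intervals, and dotted lines at a 2-fold difference. Mir423 lies at 1.92, and the other members lie between -0.33 and 0.36 on the log2 scale.

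The hairpin of Mir423 (chr11:77078064-77078172, minus strand, RefSeq GRCm38.p6) is shown because its gene gave the widest gap, and the single gene count covers both of its arms, marked by capitals. The table gives no way to say which arm differed.
Mir423 hairpin: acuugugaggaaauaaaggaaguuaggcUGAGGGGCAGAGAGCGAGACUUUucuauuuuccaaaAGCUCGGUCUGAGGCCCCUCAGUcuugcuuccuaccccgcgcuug

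At 109 nt this is the longest hairpin of the 7, whose median is 74 nt, against 89 nt for all genes of the tables. Its share of G and C was 51.4%, near the median of 50.8% of all genes. The 4 members with a ratio above 1 had a share of G and C between 51.4 and 63.4%, and the 3 with a ratio below 1 had 33.8 to 54.1%. Across the 7 members Spearman's rho of that share and the log2 ratio was 0.54, and across all 311 tested genes it was 0.14. These are descriptions over genes that share the same 2 libraries, and the part of base composition in the ratios was not tested.

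Mir191 and Mir425 lie in the same long noncoding RNA, and their balance differed between the libraries. Mir425 gave 8.04% of the pair's 16885 counts in replicate 2 (exact interval 7.63 to 8.46%) and 11.1% of 3872 counts in replicate 1 (10.1 to 12.1%). For each count of Mir425 there were 11.4 counts of Mir191 in replicate 2 and 8.05 in replicate 1. This move of 0.51 on the log2 scale was the median over the 15 pairs of members without Mir423. The intervals did not overlap, so this difference exceeded counting error. It has no check beyond these libraries. Mir191 is also the member whose count depends on strand. Gm24083, an annotated microRNA gene, covers it on the minus strand, and with strand ignored Mir191 had 0 counts in both libraries. The counts of the other 6 members were the same with strand ignored. All 7 had 0 counts on the opposite strand in both libraries.

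Set against one another, the 6 members other than Mir423 kept their proportions within 2-fold. Over the 15 pairs without Mir423, the quotient of 2 members moved between the libraries by 0.018 to 0.68 on the log2 scale, with a median of 0.51. The steadiest quotient was that of Mir191 over Mir320, 10.3 in replicate 2 and 10.5 in replicate 1. Mir191 over Mir484 was 22.9 in replicate 2 and 22.4 in replicate 1. Mir425 over Mir361 was 0.306 in replicate 2 and 0.294 in replicate 1. In the 6 pairs with Mir423 the move was 1.56 to 2.25, and each exceeded 2-fold. All these moves are differences between the members' log2 ratios given above, so they restate those ratios and add no evidence on them. Mir423 over Mir186 moved most, with 6.30 in replicate 2 and 1.33 in replicate 1.

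A scale shifts the log2 ratio of every gene by 1 constant, the scaling gene's own ratio. The values here therefore restate the members' ratios as their size for all other genes and add no evidence on them. Scaled to the library total, the median log2 ratio of the 311 tested genes was 0.04. With Mir186, Mir361 or Mir425 as the scale it was 0.36, 0.26 and 0.20. With Mir484, Mir191 or Mir320 it was -0.27, -0.30 and -0.32. With Mir423 as the scale it was -1.88, and 255 genes were called lower in replicate 2 and 1 higher, a total of 256. Over the other 6 single scales the calls ranged from 124 to 148, but with Mir186 113 were higher and 21 lower, and with Mir320 28 were higher and 120 lower. The counting error of the scaling gene itself is not in these tests.

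The geometric mean of the 7 members, a common form of combined reference, was 827 CPM in replicate 2 and 664 CPM in replicate 1, a ratio of 1.24. Used as the scale it moved the median log2 ratio to -0.28, with 32 genes higher and 114 lower. Without Mir423 the ratio of the geometric mean was 1.03, and with each other member left out in turn it lay between 1.24 and 1.34. The 6-gene mean gave 58 genes higher and 63 lower, close to the 57 and 64 found with TMM scaling. Of the 126 calls made with the library total, 112 were made in the same direction with the mean without Mir423, 86 with the mean of all 7 and 55 with Mir423 alone. That Mir423 is the one to leave out was seen in these same libraries.

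**Figure D4:**
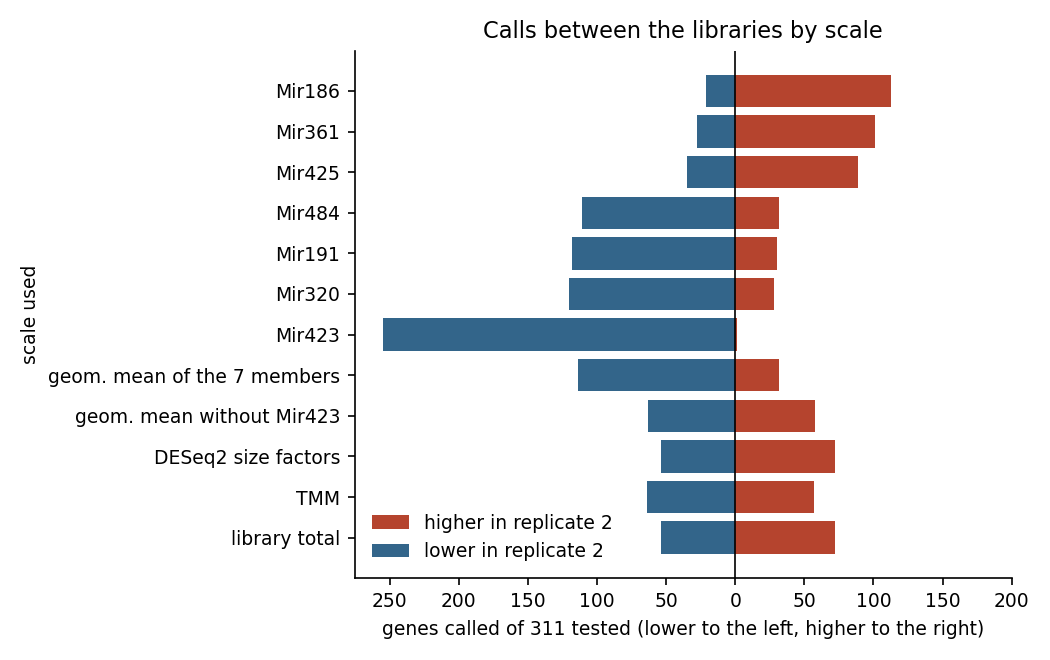
Number of the 311 tested genes called higher (right) or lower (left) in replicate 2 by the exact binomial test under each scale. With Mir423 as the scale 255 genes were called lower, and the balance of directions under each single-gene scale follows by construction from that gene's own ratio.

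Other microRNAs used as references were measured from a list of 24 genes, 23 of them detected and tested. Of these, 9 were higher in replicate 2, 4 were lower and 10 did not pass, and 1 differed at least 2-fold (Mir26a-2, named after its values were seen). The share that passed in either direction lay between that over all tested genes (40.5%) and that over those at 100 CPM or more (66.4%). The median size of their log2 ratio was 0.21, against 0.33 for the members. By mean level the most abundant was Mirlet7g, at 45722 CPM in replicate 2 against 44393 CPM in replicate 1, followed by Mir26b, at 45952 CPM in replicate 2 against 39663 CPM in replicate 1. Mirlet7i, at 36837 CPM in replicate 2 against 37296 CPM in replicate 1, had a ratio of 0.988 (interval 0.974 to 1.00) that did not pass. Mir22 was at 27208 CPM in replicate 2 against 31552 CPM in replicate 1. All 4 were more abundant than Mir191 in each library. Of the 24, 10 share 20 or more bases with another gene, unlike the 7 members, and their multi-mapping reads are missing from the counts. Mir26a-2, which shares bases with Mir26a-1, is among these 10 and had 176 counts in replicate 2 and 19 in replicate 1.

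The other 4 microRNAs of the list made without Drosha were scarcer than Mir320 and Mir484. Mir1981 had 66.9 CPM in replicate 2 and 100.2 CPM in replicate 1, lower in replicate 2 (adjusted p = 0.0222, exact binomial), the direction opposite to that of Mir320 and Mir484. Mir877 had 15.0 CPM in replicate 2 and 17.2 CPM in replicate 1 and did not pass. The other 2 had under 10 counts over both libraries and were not tested. Of 11 small nuclear and nucleolar RNAs used as references, Snord43 was the one annotated in the tables. It had 168 counts in replicate 2 and 91 in replicate 1, a log2 ratio of -0.95 (adjusted p = 6.28e-06, exact binomial). Inserts were under 30 nt, so this ratio need not be that of the full-length RNA.

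For each member, the gene nearest in level in both libraries was found by the distance of log2 CPM over the 2 libraries. Mir16-2 was nearest to Mir484, at a distance of 0.02, with 301 CPM in replicate 2 and 243 CPM in replicate 1. Mir676 was nearest to Mir320 (0.07), Mir144 to Mir425 (0.10), Mir149 to Mir191 (0.15), Mir671 to Mir186 (0.16) and Mir125a to Mir361 (0.21). Mir144 is also an erythroid marker, and Mir16-2 shares bases with Mir16-1, so its count is uncertain. The distance was largest for Mir423, whose nearest gene was Mir92-1, at a distance of 0.78, with 835 CPM in replicate 2 and 449 CPM in replicate 1.

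Levels of cell type markers also differed between the libraries. Marker calls here are by the exact binomial test, against counting error only, which 40.5% of all tested genes passed. Among genes with a mean of 100 CPM or more 66.4% passed. Under edgeR's exact test no marker passed. The 9 skeletal muscle markers had a summed level of 52158 CPM in replicate 2 and 22884 CPM in replicate 1, of which Mir206 alone had 48078 CPM in replicate 2 and 20325 CPM in replicate 1. Of these 9 genes 4 were called higher in replicate 2 (Mir206, Mir499, Mir208b and Mir486) and 5 did not pass, with Mir1a-1, Mir133a-1, Mir133a-2 and Mir133b at ratios below 1. The latter 4 were scarce, from 4.84 CPM (Mir133a-2, replicate 2) to 21.9 CPM (Mir133b, replicate 1). Reads matching several places are missing from the counts of all markers, so levels and sums need not follow the amount of muscle. The endothelial Mir126a had 129798 CPM in replicate 2 and 81286 CPM in replicate 1. The 2 smooth muscle markers had a summed level of 81451 CPM in replicate 2 and 123068 CPM in replicate 1, and the 2 erythroid markers had 4688 CPM in replicate 2 and 6176 CPM in replicate 1. The 4 leukocyte markers had a summed level of 2889 CPM in replicate 2 and 2542 CPM in replicate 1, but Mir150 and Mir155 were called higher in replicate 2, Mir142 was called lower and Mir223 did not pass. Of 5 epithelial markers 3 were detected, and the list had a summed level of 28.6 CPM in replicate 2 and 48.5 CPM in replicate 1, and the liver marker Mir122 had 29.9 CPM in replicate 2 and 15.7 CPM in replicate 1. The part of these differences in the members' ratios was not tested.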

How the data were processed

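The authors deposited 1 table of raw counts per library on mm10 with GENCODE M21 (assembly per the labels, annotation per the text deposited beside each table). The aligner is not given in the sources used here, nor is the counter. Of the 3 count columns (unstranded, same strand, opposite strand, as judged from the values) the same-strand one was used. All 2202 identifiers matched GENCODE M21. Rows naming no gene stayed out of totals: in replicate 2 and replicate 1, unmapped reads were 6.93% and 5.97% and no-feature reads 2.48% and 1.62%. The limit that a count of 0 allows (3 counts) was 1.32 CPM for replicate 2, and for replicate 1 it was 4.70 CPM. Reads amplified by PCR carry no molecular identifiers and are not independent, so intervals (Clopper-Pearson) and such limits cover counting error only.

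CPM divides by the total over genes. Genes with 10 or more counts were compared by a two-sided exact conditional binomial test, with p-values adjusted by Benjamini and Hochberg's method and a threshold of 0.05, and with a prior count of 0.5 for log2 ratios. The step was tested on simulated data that held counting error only, so this is no check against further spread between libraries. Named genes were the members, their nearest gene in level, hosts, the 4 most abundant other references and counted genes of the 2 small lists. Members and lists were chosen with earlier results of these data known. Software was Python 3.11.15, pandas 2.3.3, scipy 1.17.1, matplotlib 3.10.9, R 4.3.3, edgeR 4.0.16 and DESeq2 1.42.0 (size factors).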

Additional observations from a re-analysis of the deposited data

How the results depend on the processing

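The count of 5 called members lay between 4 and 6 under TMM, DESeq2 size factors, unstranded counts, filters of 1 and 50 counts and every scale built from members. Over all genes the binomial calls were 126 of 311 in the main setting. They were 120 of 549 with a filter of 1 count and 117 of 226 with a filter of 50. With unstranded counts and the other scales they lay between 114 and 153, apart from 256 with Mir423 as the scale. A single member used as the scale cannot itself be called. The members' count fell to 0 with edgeR's exact test under each of 3 filters. In that test 2, 2 and 1 of all genes were called with filters of 1, 10 and 50 counts (21, 20 and 14 at an unadjusted p under 0.05), and the adjusted p of Mir423 was 0.220, 0.117 and 0.0636. The filters of 1 and 50 counts in that test and the geometric means without each member were chosen after seeing the data. With Mir423 as the scale 256 genes were called, and the log2 ratio became -1.58 for Mir191, -1.62 for Mir484 and -1.56 for Mir320. With Mir320 as the scale Mir191 was at -0.018 and Mir484 at -0.058, and with Mir191 as the scale Mir484 was at -0.040. With the geometric mean of the 7 members Mir484 was at -0.014. With Mir361 as the scale Mir425 was at 0.058, and with Mir186 as the scale Mir425 was at 0.16 and Mir361 at 0.10. These turns follow from the scale itself. Mir484 also lost its call with TMM (log2 ratio 0.24) and with a filter of 1 count, and Mir425 (-0.23) and Mir186 (-0.39) passed with TMM. Under the binomial test Mir423 kept direction and call in 13 of 13 alternatives, from 1.56 to 2.24, and it was not called under edgeR's test. Having the largest ratio of the 7, it stays above 0 by construction when scaled by any other member or by the mean of all 7. Its counts were the same under the filters and with strand ignored. Most of these alternatives could therefore not turn its direction, and the tally is no measure of robustness. With unstranded counts Mir191 was at 0, so the share of Mir425 in the pair with Mir191 was 100%. The summed level was then 6349 CPM. Assigned totals were smaller with strand ignored, 1591442 in replicate 2 and 447110 in replicate 1. The unchanged counts of the other 6 members therefore gave higher CPM, as for Mir361, with a mean of 3024 CPM against 2118 CPM. Replicate 1 alone kept 4 members in place in the order by level and replicate 2 alone kept 5. A ratio between 2 libraries has no value with either left out. DESeq2 was not run as a test, as it needs replicates. No paired analysis was possible because there is 1 group. Depth limits replicate 1 most, where Mir186 rested on 131 counts.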

Other observations

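Set against all reads of the library, including those that matched several places, Mir191 had 1103 reads per 1000000 in replicate 2 and 929 in replicate 1. Mir423 had 167 in replicate 2 and 46.9 in replicate 1. Mir361 had 315 in replicate 2 and 393 in replicate 1, and Mir186 had 26.4 in replicate 2 and 35.3 in replicate 1. The directions of these 4 genes were those found per assigned count.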
